A study of Mus musculus with 2 samples.

Results

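The genes described here are the 4 JAK kinases of the mouse and 6 inhibitors of their pathway. They were chosen by name from the textbook account of cytokine signalling, with earlier results of these data known. They are Jak1, Jak2, Jak3 and Tyk2, the suppressor Socs3, the PIAS proteins Pias1, Pias3 and Pias4, and the phosphatases Ptpn6 and Ptpn11. They make up 10 of the 12428 genes to which a splice junction could be assigned, and 9 of them reached 20 reads, as did 8796 genes in all. Each gene was measured by the reads that cross its annotated introns.

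Both libraries came from adherent peritoneal exudate macrophages of male C57BL/6JJcl mice, collected 3 days after thioglycolate, an irritant that draws these cells into the peritoneum. The treated group was given 100 ng/ml of IL-10 for 4 h, and the untreated group was not. The descriptive text of the untreated sample repeats the treatment of the other sample, so the groups rest on the sample titles. Each group is 1 library, and how many mice stand behind a library is not stated.

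JAK kinases sit on the inner tails of cytokine receptors and phosphorylate the receptors and the STAT factors bound there when a cytokine brings receptor chains together. The IL-10 receptor uses Jak1 and Tyk2 and acts mainly through Stat3. Jak2 serves receptors such as those for interferon gamma and GM-CSF, and Jak3 serves the receptors that share the common gamma chain. SOCS proteins are made in response to the signal and shut off receptors and kinases, PIAS proteins are SUMO ligases that restrain STAT factors, and the SH2-domain phosphatases SHP-1 (Ptpn6) and SHP-2 (Ptpn11) act at receptors and adaptors.

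The junctions of introns that passed a 2-fold rule are shown here, read 5′ to 3′ from the GENCODE M21 transcripts. Each is given as the 20 bases of transcript on each side of the exon boundary. Lower case is the upstream exon and capitals are the downstream exon. These are the introns of the family with at least 20 reads whose ratio reached 2-fold in either direction with an interval that excluded 1. All lie in coding sequence. By the same rule 2.90% of all introns at that depth were higher and 2.02% lower. Intron numbers count from the 5′ end of the transcript with the most reads, and positions are mm9 intron coordinates.
Jak2 intron 24, chr19:29385532-29386230, plus strand: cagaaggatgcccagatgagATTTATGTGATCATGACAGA
Jak3 intron 12, chr8:74206313-74206798, plus strand: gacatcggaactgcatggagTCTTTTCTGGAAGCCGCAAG
Jak3 intron 15, chr8:74207985-74208115, plus strand: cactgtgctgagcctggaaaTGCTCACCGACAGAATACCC
Jak3 intron 17, chr8:74208534-74209064, plus strand: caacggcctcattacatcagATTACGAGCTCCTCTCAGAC
Jak3 intron 22, chr8:74210872-74211137, plus strand: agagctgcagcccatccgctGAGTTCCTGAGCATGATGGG
Pias3 intron 7, chr3:96505645-96506096, plus strand: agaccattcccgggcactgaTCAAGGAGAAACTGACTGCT
Pias4 intron 6, chr10:80619863-80619971, minus strand: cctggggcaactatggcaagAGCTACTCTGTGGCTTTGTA
Ptpn6 intron 3, chr6:124678989-124682317, minus strand: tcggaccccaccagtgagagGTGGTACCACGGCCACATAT
Of 163 such windows, 1 for each intron of the 10 genes, 0 occurred in a transcript of a gene outside the 10. The 10 genes were not searched against each other. None of the introns counted was annotated to another gene as well.

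The IL-10 library held 3998954 junction reads, 3933457 of them on named introns, and the untreated library held 4035991, of which 3967287 were on named introns. Insert sizes were 188 bp in the IL-10 library and 197 bp in the untreated library. A ratio is a gene's share of named reads in the IL-10 library over its share in the untreated library, with an exact 95% interval that covers counting error only. With 1 library per group the ratios compare the libraries, and no difference has a replicate check. A call, higher or lower, required 20 or more reads in all, a 2-fold difference (ratio of 2 and above, or 0.5 and below) and an interval clear of 1. In bulk RNA, fewer cells of a type and less RNA per cell cannot be told apart.

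Jak3 rose in the IL-10 library, and it was the only member called in either direction. Jak1 was the kinase with the most reads and Jak1 and Jak2 had smaller ratios above 1, while the interval of Tyk2 included 1. Of the inhibitors, Socs3 was seen in the IL-10 library alone, and Ptpn6, Ptpn11, Pias1 and Pias4 had ratios between 0.913 and 1.14. Among the 9 measured genes 1 was called higher and 0 lower, beside 1.71% called higher and 1.56% called lower of all genes tested. An interval above 1, whatever the fold, was found for 4 of the 9 (Jak1, Jak2, Jak3 and Pias3) and an interval below 1 for Ptpn6, beside 12.6% and 13.1% of all genes. Intervals narrow with depth, so that among genes with at least 200 reads 17.7% had an interval above 1 and 17.3% one below 1. The median log2 ratio of the 9 genes was 0.19, beside -0.004 over all genes tested. Since the genes were chosen with earlier results of these data known, the comparisons with all genes are descriptions only.

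**Figure D1:**
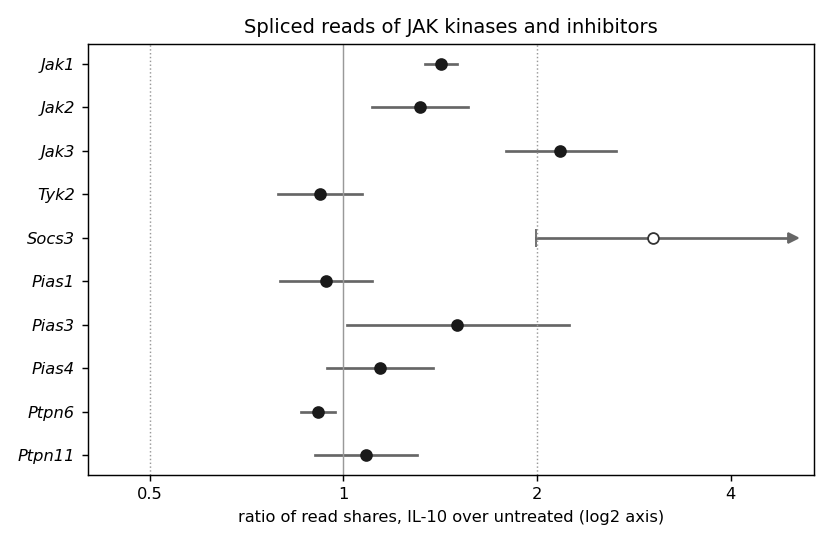
Ratio of read shares, IL-10 over untreated, for each gene on a log2 axis, with bars for the exact 95% interval of counting error; dotted lines mark 0.5 and 2. Jak3 lies beyond 2, and the open point of Socs3 is its fold against 3 reads, the floor for a count of 0, with a lower bound of 1.99.

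Jak3 had 332 reads with IL-10, against 154 in untreated cells. Its ratio was 2.17 (95% interval 1.79 to 2.65), a log2 ratio of 1.12. The gene lies on chromosome 8, plus strand, and its introns with reads run from 74202421 to 74214070 in mm9. The difference was spread along the transcript: 19 of the 20 introns with at least 5 reads were above 1, where 54.1% of all introns of that depth were. The exception was intron 18, at 8 reads with IL-10, against 9 in untreated cells.

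All 10 Jak3 introns with at least 20 reads had a ratio above 1, from 1.51 to 3.89 with a median of 2.06. By the rule used for genes, 4 introns were called higher, namely those whose junctions are shown above. Intron 17 held the most reads, 56 with IL-10, against 18 in untreated cells, for a ratio of 3.14 (1.82 to 5.67). Intron 22 had the highest ratio, 3.89 (1.65 to 10.6), from 27 reads with IL-10, against 7 in untreated cells. Intron 12 had 22 reads with IL-10 and 10 untreated (2.22, 1.01 to 5.25), and intron 15 had 25 with IL-10 and 12 untreated (2.10, 1.02 to 4.59). The 12 introns nearest the 5′ end gave a ratio of 2.25 (114 reads with IL-10, 51 untreated) and the 12 nearest the 3′ end 2.14 (218 with IL-10, 103 untreated). No single intron carried the gene's ratio, which was lowest, 2.05, without intron 17.

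Jak3 is best known from lymphocytes, and markers of these cells were read beside it. Of 12 T and NK cell markers 0 reached 20 reads, and Cd3d, Cd8a, Ncr1, Klrb1c and Trac had no reads in either library. The 12 together had 18 reads with IL-10, against 6 in untreated cells, or 4.58 reads per 1000000 named reads with IL-10 and 1.51 untreated. Jak3 alone had many more reads than the whole list in each library. The list was higher in the IL-10 library too, and its part in the Jak3 ratio was not tested. All 8 macrophage markers were measured, at 69479 reads with IL-10, against 85062 in untreated cells, and most of that gap was in the lysozyme gene Lyz2 (31849 with IL-10, 45047 untreated). They did not move one way: 4 of the 8 had an interval below 1 and 2 one above, the integrin gene Itgam (1.17, 1.14 to 1.21) and the Fc receptor gene Fcgr1 (1.22, 1.05 to 1.41), and 0 were called.

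**Figure D2:**
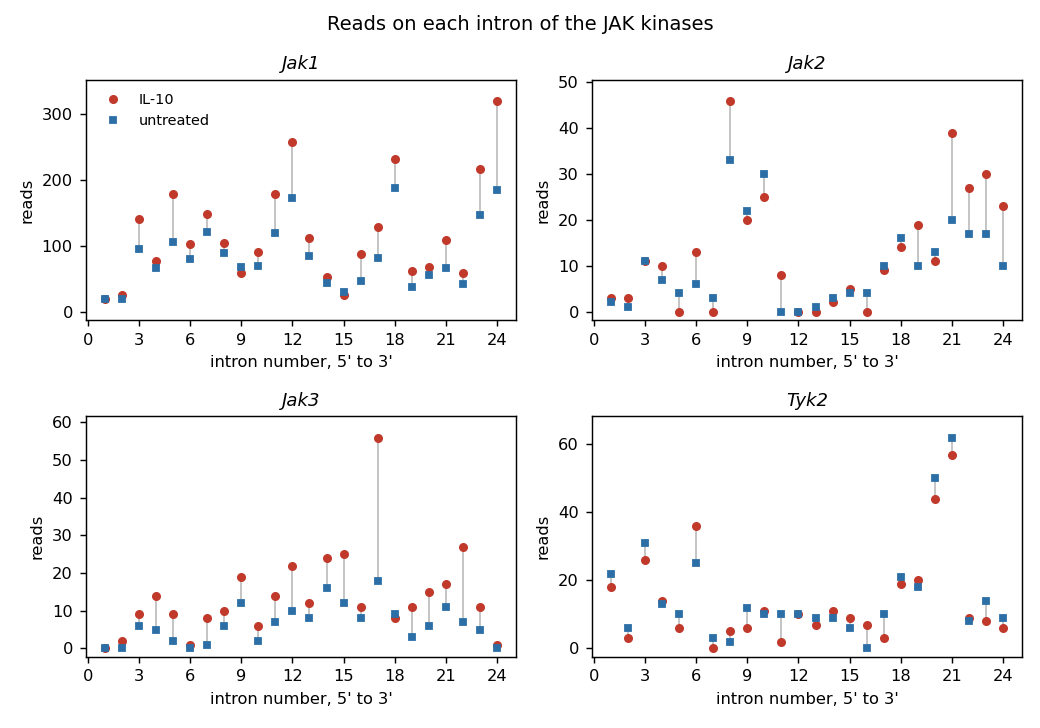
Reads on each intron of the 4 JAK kinases, numbered from the 5′ end, in the IL-10 library (circles) and the untreated library (squares); each panel has its own vertical scale. In Jak3 the IL-10 point is above the untreated one at nearly every intron, in Jak1 at most, and in Tyk2 the libraries lie close together.

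Jak1, a kinase of the IL-10 receptor and of many other cytokine receptors, had 2853 reads with IL-10, against 2032 in untreated cells. Its ratio was 1.42 (1.34 to 1.5), a log2 ratio of 0.50, short of the 2-fold needed for a call. Its introns lie on chromosome 4, minus strand, from 100826196 to 100937646. All 24 introns of the transcript had at least 20 reads, and 22 of them were above 1.

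The Jak1 introns ranged from 0.874 to 1.91 with a median of 1.33, and 11 of the 24 had an interval above 1 while 0 had one below. Intron 16 had the highest ratio, at 87 reads with IL-10, against 46 in untreated cells. Intron 24, the last, held the most reads, 320 with IL-10 and 185 untreated, for a ratio of 1.75 (1.45 to 2.10). The lowest were introns 15 (26 reads in the IL-10 library, 30 in the untreated library) and 9 (59 with IL-10, 68 untreated), whose intervals include 1. The 12 introns nearest the 5′ end gave 1.36 (1.25 to 1.47) and the 12 nearest the 3′ end 1.47 (1.36 to 1.60), intervals that overlap. Over all genes with at least 10 introns the same split gave 1.03 and 1.04.

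Jak2, the kinase of the receptors for interferon gamma, GM-CSF and other cytokines, had 318 reads with IL-10, against 244 in untreated cells. Its ratio was 1.31 (1.11 to 1.56), a log2 ratio of 0.39. It lies on chromosome 19, plus strand, with introns from 29326609 to 29386230. Of 18 introns with at least 5 reads 12 were above 1, and the 11 with at least 20 reads ranged from 0.841 to 2.32.

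Along Jak2 the ratio was higher toward the 3′ end, within counting error. The 12 introns nearest the 3′ end gave 1.44 (1.14 to 1.83), and the 12 nearest the 5′ end gave 1.18 (0.916 to 1.52), with overlapping intervals. Intron 24 was called higher, at 23 reads with IL-10, against 10 in untreated cells (2.32, 1.06 to 5.46). Intron 21 had 39 reads with IL-10 and 20 untreated (1.97, 1.12 to 3.56). Intron 8 held the most, 46 with IL-10, against 33 in untreated cells, with an interval that includes 1. Reads were uneven along the transcript in both libraries: intron 12 had none, and intron 11 had 8 reads with IL-10, against 0 in untreated cells. The other way, introns 5, 7, 13 and 16 had 0 reads with IL-10, against 4, 3, 1 and 4 in untreated cells.

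Tyk2, the partner of Jak1 at the IL-10 receptor, had 337 reads with IL-10, against 370 in untreated cells. Its ratio was 0.919 (0.790 to 1.07), an interval that includes 1. It lies on chromosome 9, minus strand, from 20909628 to 20935615. Of 23 introns with at least 5 reads 10 were above 1, and 0 of the 12 with at least 20 reads were called. These ranged from 0.576 to 1.45. Intron 21, with the most reads, had 57 with IL-10, against 62 in untreated cells. The sparsest introns varied more, and intron 16 had 7 reads with IL-10 and 0 untreated, while intron 11 had 2 with IL-10 and 10 untreated.

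The 4 kinases together had 3840 reads with IL-10, against 2800 in untreated cells, a ratio of 1.38 (1.32 to 1.45) in which Jak1 holds most of the reads. Genes with more introns collect more junction reads, so levels were compared as reads per 1000000 named reads for each intron of 1 transcript. On that scale Jak1 was at 30.2 with IL-10, against 21.3 in untreated cells. Jak3 was at 3.52 (counting interval 3.15 to 3.92) with IL-10, against 1.62 (1.37 to 1.89) in untreated cells. Tyk2 was at 3.57 with IL-10 and 3.89 untreated, and Jak2 at 3.37 with IL-10 and 2.56 untreated.

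In the IL-10 library Jak3, Tyk2 and Jak2 thus lay at levels whose counting intervals overlap. In the untreated library Tyk2 was above Jak2 and Jak2 above Jak3, with intervals apart. That order is of means over introns. By the median over introns the Tyk2 level was 2.29 with IL-10 and 2.52 untreated, over 1.5 times lower in each library. By the median the untreated shares of Tyk2 and Jak2 came closer, at 10.1% (binomial interval 8.96 to 11.2) and 8.54% (7.53 to 9.64). These intervals overlap, so the order of Tyk2 and Jak2 by the median is not resolved. Of the mean reads per intron of the family, Jak1 made up 74.3% in the IL-10 library (binomial interval 72.9 to 75.7) and 72.6% in the untreated library (70.9 to 74.2), and these intervals overlap. Jak3 made up 8.65% (7.78 to 9.58) with IL-10, against 5.50% (4.69 to 6.41) in untreated cells. The share of Tyk2 was 8.78% (7.90 to 9.72) with IL-10, against 13.2% (12.0 to 14.5) in untreated cells. The share of Jak2 was 8.29% with IL-10 and 8.72% untreated, with intervals that overlap. The intervals take reads as independent and cover counting error only.

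**Figure D3:**
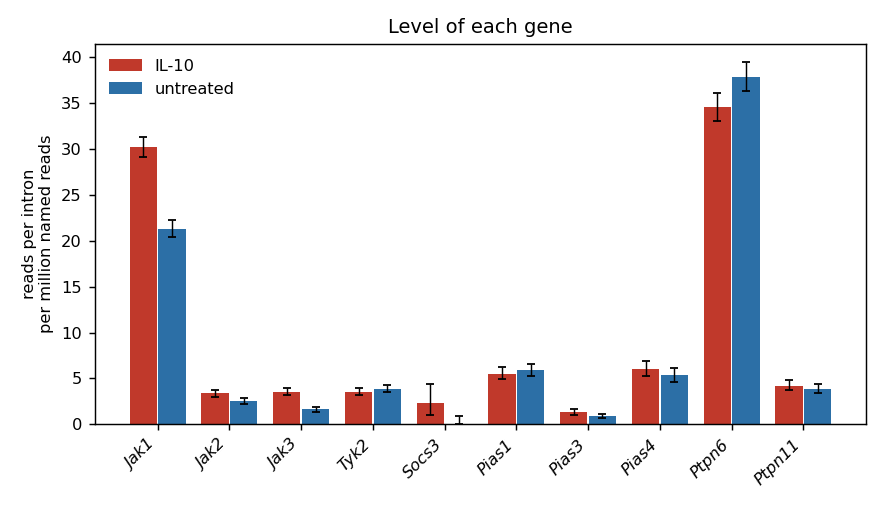
Level of each gene as reads per 1000000 named reads for each intron of 1 transcript, IL-10 beside untreated; bars on the columns are exact Poisson 95% intervals of counting error. Ptpn6 and Jak1 stand far above the other genes in both libraries, Jak1 at 30.2 with IL-10 and 21.3 untreated.

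Socs3, which binds receptors and JAK kinases and is a Stat3 target, had 9 reads with IL-10, against 0 in untreated cells. Against a floor of 3 reads for a count of 0 its fold was 3.03, but the exact lower bound of the ratio was 1.99. The gene has 1 intron, in its 5′ UTR, at chr11:117829633-117830188 on the minus strand, so most of its transcript cannot give a junction read. Its total was below the 20 reads needed for a call. Per intron its level was 2.29 in the IL-10 library, and the 0 reads of the untreated library allow up to 0.930 (Poisson bound).

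Because Socs3 is a Stat3 target, the 250 bases before its start were read for the spaced palindrome TTCNNNGAA, a form that STAT dimers bind. The palindrome reads the same on both strands, and it occurred in 2306 of 32851 promoter windows of that length (7.02%). Windows could be matched for 9 of the 10 genes, in 10 windows, and 1 held the palindrome. That window was the one of Socs3, printed here from RefSeq on GRCm38.p6 at chr11:117969367-117969616, minus strand, in the direction of transcription with the match in capitals, 146 to 154 bases before the start.
Socs3 upstream window: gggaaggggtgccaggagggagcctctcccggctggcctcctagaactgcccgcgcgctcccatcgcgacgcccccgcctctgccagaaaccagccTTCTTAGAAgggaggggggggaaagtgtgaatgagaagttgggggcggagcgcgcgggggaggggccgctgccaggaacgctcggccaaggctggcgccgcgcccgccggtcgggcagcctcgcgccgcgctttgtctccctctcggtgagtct
A match of letters is a description of the window and was not tested as a binding site.

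Pias1, a SUMO ligase, had 283 reads with IL-10, against 304 in untreated cells, a ratio of 0.939 (0.796 to 1.11). It lies on chromosome 9, minus strand, from 62730069 to 62799562. Of 12 introns with at least 5 reads 5 were above 1, and those with at least 20 reads ranged from 0.576 to 2.30 with 0 called. The intron with the most reads, intron 4, had 56 with IL-10, against 68 in untreated cells.

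Pias3, the family member that binds Stat3, had 67 reads with IL-10, against 45 in untreated cells. Its ratio was 1.502 (1.01 to 2.24), and its introns lie on chromosome 3, plus strand, from 96501119 to 96508771. The excess of reads with IL-10 was largest at 2 neighbouring introns. Intron 7 had 22 reads with IL-10, against 9 in untreated cells (2.47, 1.09 to 6.08), and intron 6 had 12 with IL-10 and 0 untreated. The other introns together had 33 reads with IL-10, against 36 in untreated cells, a ratio of 0.925 (0.559 to 1.53). The 2 introns were picked after the counts were seen, so leaving them out had to lower the ratio. The interval without them still includes 1.502. The 6 introns nearest the 5′ end gave 2.47 (1.09 to 6.08) and the 6 nearest the 3′ end 0.859 (0.471 to 1.56), intervals that overlap. The 5′ set includes intron 6, and intron 7 is in neither set. This split thus counts the reads of intron 6 again and is not a separate observation.

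Pias4, the family member also called PIASy, had 238 reads with IL-10, against 211 in untreated cells, a ratio of 1.14 (0.941 to 1.38). It lies on chromosome 10, minus strand, from 80617118 to 80630429. Of 10 introns with at least 5 reads 5 were above 1. Intron 6 was called higher at 34 reads with IL-10, against 16 in untreated cells (2.14, 1.15 to 4.16). Its neighbours had ratios below 1: intron 5 had 18 with IL-10 and 21 untreated, and intron 7 had 41 with IL-10 and 45 untreated. The 3 PIAS genes together had 588 reads with IL-10, against 560 in untreated cells (1.06, 0.942 to 1.19).

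Ptpn6, which encodes SHP-1, the phosphatase of blood cells that counters JAK and receptor signals, had 2042 reads with IL-10, against 2256 in untreated cells. Its ratio was 0.913 (0.859 to 0.970), a log2 ratio of -0.13. The interval excludes 1, but the difference is small. The gene lies on chromosome 6, minus strand, from 124670927 to 124688516, and all 15 introns had at least 20 reads.

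Intron 3 of Ptpn6 was called lower, at 57 reads with IL-10, against 118 in untreated cells (0.487, 0.349 to 0.674). It was the only intron of the family called lower. Its neighbours had ratios below 1 too, but less so. Intron 2 had 166 reads with IL-10, against 203 in untreated cells (0.825, 0.668 to 1.02). Intron 4 had 85 with IL-10 and 110 untreated (0.779, 0.580 to 1.04), and both intervals include 1. Intron 5 had 108 with IL-10 and 158 untreated (0.689, 0.535 to 0.886). No other junction in either library used an end of intron 3. At the other end of the range, intron 11 had 179 reads with IL-10, against 138 in untreated cells (1.31, 1.04 to 1.65).

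The Ptpn6 difference thus lay toward the 5′ end. The 7 introns nearest that end gave 0.813 (0.736 to 0.898), at 716 reads with IL-10, against 888 in untreated cells. The 7 nearest the 3′ end gave 1.01 (0.932 to 1.101), with 1127 reads with IL-10 and 1122 untreated, and these intervals do not overlap. How often other genes part in this way was not counted. Intron 13, which held the most reads, had 265 with IL-10, against 255 in untreated cells.

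Ptpn11, which encodes SHP-2, a phosphatase that mostly promotes signalling through adaptors such as Gab1 and Gab2, had 249 reads with IL-10, against 232 in untreated cells. Its ratio was 1.08 (0.902 to 1.30). It lies on chromosome 5, minus strand, from 121584156 to 121641210. Of 15 introns with at least 5 reads 9 were above 1 and 6 below, and 0 of the 11 with at least 20 reads were called. Intron 8 had the highest ratio of these, 2.02, at 24 reads with IL-10, against 12 in untreated cells, and its interval includes 1.

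**Figure D4:**
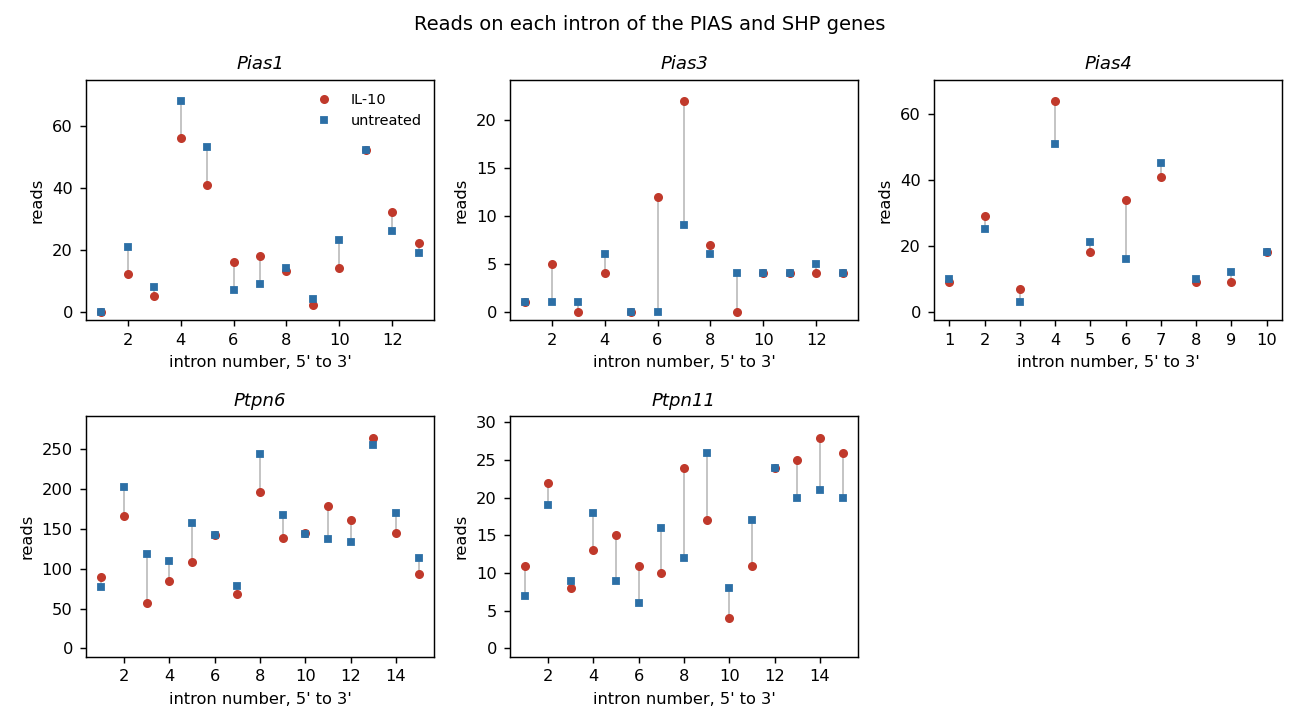
Reads on each intron of the PIAS and SHP genes, numbered from the 5′ end, in the IL-10 library (circles) and the untreated library (squares); each panel has its own vertical scale. The gap at intron 3 of Ptpn6 (57 reads with IL-10, 118 untreated) and that at introns 6 and 7 of Pias3 stand out from their neighbours.

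Among the inhibitors, Ptpn6 had by far the highest level per intron, 34.6 with IL-10, against 37.9 in untreated cells. Pias4 was at 6.05 with IL-10 and 5.32 untreated, Pias1 at 5.53 with IL-10 and 5.89 untreated, and Ptpn11 at 4.22 with IL-10 and 3.899 untreated. Counting intervals of Pias4 and Pias1 overlap in each library, so their order is not resolved. Pias3 was lowest of the measured inhibitors, at 1.31 with IL-10, against 0.873 in untreated cells. The order over all 10 genes began in both libraries with Ptpn6 and Jak1.

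Over the introns of all 10 genes, 159 of the 163 in the chosen transcripts had reads. Of 101 introns with at least 20 reads 7 (6.93%) were called higher and 1 (0.99%) lower, beside 2.90% and 2.02% of all introns at that depth. Of the 7, 4 belong to Jak3. Outside Jak3, 1 intron each of Jak2, Pias3 and Pias4 was called higher and 1 of Ptpn6 lower. These are too few to set apart from the shares over all introns. Introns of a gene share its transcripts and are not replicates.

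No splice choice within the genes was called, but the rule could hardly have called one at the sites found. A donor or acceptor with several junctions and at least 20 reads in each library was found 14 times, in Jak1, Tyk2, Pias4 and Ptpn6. Of these 0 differed by 20 percentage points with intervals apart, beside 0.211% of all such sites. Minor junctions at these sites had 4 reads or fewer in a library, and with annotated junctions alone 2 sites remained. The absence of calls thus says little about splice choice in these genes. The largest difference, 12.4 points, was at the start of Jak1, at the acceptor at 100866469. From the annotated first exon it had 19 reads in each library, 82.6% of the acceptor's reads with IL-10, against 95% in untreated cells. The remaining reads came from the donor at 100870380 (2 in the IL-10 library, 1 in the untreated library) and from one at 100891905 outside the annotation (2 with IL-10, 0 untreated). In Ptpn6 the far donor at 124688516 gave 2 reads in each library, while the near one gave 90 with IL-10 and 77 untreated.

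**Figure D5:**
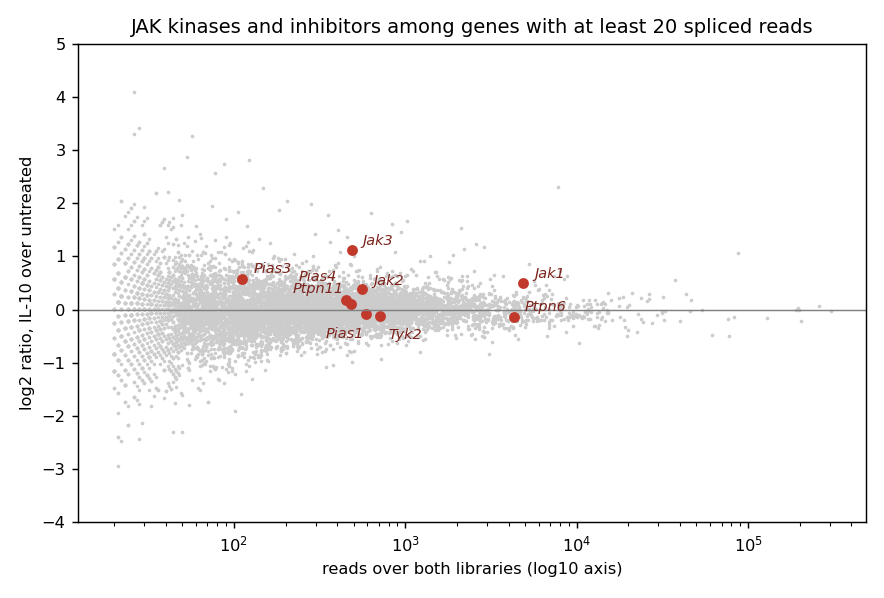
Log2 ratio, IL-10 over untreated, against reads over both libraries (log10 axis) for the 8796 genes with at least 20 reads (grey), with the 9 measured JAK kinases and inhibitors in red. Jak3 at 1.12 and Jak1 at 0.50 lie on the upper side, and Ptpn6 at -0.13 lies just below 0.

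Of the wider pathway, Stat3, Il4ra and Il21r were called higher. Over 8 lists of regulators, STAT factors and receptors, without the 10 genes, 64 of 85 listed genes had at least 20 reads. Of these 3 (4.69%) were called higher and 0 lower, beside 1.71% and 1.56% of all genes. An interval above 1 was found for 19 (29.7%) and one below 1 for 10 (15.6%), beside 12.6% and 13.1% of all genes and 17.7% and 17.3% of those with at least 200 reads. Their median log2 ratio was 0.06. The lists too were chosen with earlier results of these data known, so shares of a list beside all genes are descriptions only.

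Receptors that share the common gamma chain and signal through Jak3 held 2 of those calls. Il4ra, the receptor chain for IL-4 and IL-13, had 689 reads with IL-10, against 251 in untreated cells (2.77, 2.39 to 3.21). Il21r had 48 with IL-10 and 21 untreated (2.30, 1.35 to 4.05). Il2rg, the common gamma chain itself, had 946 reads with IL-10, against 795 in untreated cells (1.20, 1.09 to 1.32). Il15ra had 10 reads with IL-10 and 15 untreated. Il7r, the most read of the list, had 2111 reads with IL-10 and 2257 untreated (0.943, 0.889 to 1.001). Of 8 genes in this list 5 had at least 20 reads, and 2 of the 5 were called higher, beside 1.71% of all genes. The list's median log2 ratio was 0.26, and it was -0.08 when genes with fewer reads were let in.

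Among the 7 STAT factors Stat3, the main factor of IL-10 signalling, was called higher, at 1516 reads with IL-10, against 687 in untreated cells (2.23, 2.03 to 2.44). Stat4 had 8 with IL-10, against 16 in untreated cells, and Stat2 had a ratio of 1.11. The list's median log2 ratio was -0.02, and 1 of its 7 genes was called.

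Of the pathway's other phosphatases, Ptpn1, which acts on Jak2 and Tyk2, had 1253 reads with IL-10, against 872 in untreated cells (1.45, 1.33 to 1.58). Ptprc, the receptor phosphatase CD45, had 2753 with IL-10 and 3074 untreated (0.903, 0.858 to 0.951), and Ptpn2 had 96 with IL-10 and 86 untreated. Of the 5 phosphatases 0 were called in either direction.

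Among the genes that dock the SHP phosphatases, Gab1 had 94 reads with IL-10, against 56 in untreated cells (1.69, 1.20 to 2.40). The inhibitory receptor gene Cd300lf had 440 reads with IL-10 and 314 untreated (1.41), and Pirb, another, had 1845 with IL-10 and 1365 untreated (1.36), while Siglece had 15 with IL-10 and 20 untreated. Of 11 measured docking genes 0 were called, 7 (63.6%) had an interval above 1 and 2 (18.2%) one below, beside 12.6% and 13.1% of all genes and 17.7% and 17.3% of those with at least 200 reads.

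The other SOCS genes gave little to read. Socs7 had 22 reads with IL-10, against 18 in untreated cells (1.23), Socs6 had 8 with IL-10 and 9 untreated, and Socs5 had 0 with IL-10 and 4 untreated. No junction was assigned to Socs1, Socs2, Socs4 or Cish, which are not analysed here. In the PIAS and SUMO list 0 of 10 measured genes were called. Pias2 had 181 reads with IL-10, against 159 in untreated cells (1.15), and the SUMO proteases Senp2 and Senp1 had ratios of 0.926 and 0.942.

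Of 13 measured regulators of other kinds 0 were called. Usp18, which restrains interferon receptors, had the ratio farthest from 1, at 25 reads with IL-10, against 48 in untreated cells (0.525, 0.310 to 0.869). Cblb, a ubiquitin ligase, had 668 with IL-10 and 533 untreated (1.26), Grb2, an adaptor, had 584 with IL-10 and 478 untreated (1.23), and Pdlim2 had 38 with IL-10 and 48 untreated. Of the other JAK-bound receptors 0 of 17 were called. Il13ra1, which pairs with Il4ra, had 306 reads with IL-10, against 171 in untreated cells (1.80, 1.49 to 2.19), and Il6st, the shared gp130 chain, had 424 with IL-10 and 291 untreated (1.47). Osmr had 21 with IL-10 and 13 untreated, and Il12rb2 had 15 with IL-10 and 26 untreated. The chains of the IL-10 receptor itself were close to 1: Il10ra had 204 reads with IL-10 and 210 untreated (0.980) and Il10rb 1422 with IL-10 and 1386 untreated (1.03).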

How the data were processed

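Per the labels, RNA of macrophages kept with IL-10 or left untreated was sequenced, 1 library per group. TopHat, Cufflinks and the mm9 build are named in the submitters' processing notes, without versions. Each deposited list gives, per the file headers, an unscaled count of reads for every splice junction.

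Junctions were named from GENCODE M21, which is on GRCm38, by chromosome, strand and exact intron length. A gene needed at least 2 introns with the same offset between the builds, up to 20 Mb, and genes with a lone matching intron, such as Socs3, took the offset of neighbouring genes (1669 genes). Of 131057 junctions 82.4% were named, holding 98.4% (IL-10) and 98.3% (untreated) of reads, and 1364 belong to several genes. Coordinates are those of the deposited lists, and names rest on the match of lengths.

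Ratios of read shares carry exact conditional binomial (Clopper-Pearson) 95% intervals, which with the floor of 3 reads cover counting error only, and log2 ratios used a pseudocount of 0.5 reads. No p-value was computed. Named genes were the 10 genes and, from each pathway list, up to 4 further genes with the largest absolute log2 ratio among those with at least 20 reads. Some genes that this rule names are not reported here. Socs5, Socs6, Il7r, Il10ra, Il10rb and the marker genes fall outside that rule and were named with their values known. The members and lists were chosen with earlier results of these data known. Scripts were tested on simulated data. Alternatives changed the library scaling (TMM of edgeR, 0.987; size factor of DESeq2, 1), the introns counted, the thresholds and the pseudocount. Tools were R 4.3.3, DESeq2 1.42.0, edgeR 4.0.16, Python 3.11.15, pandas 2.3.3, matplotlib 3.10.9, scipy 1.17.1 and numpy 2.4.6.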

Additional observations from a re-analysis of the deposited data

Results flagged for a closer look

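A junction outside the annotation lay within Jak1 on the opposite strand, at chr4:100835578-100836258 (mm9), and had 16 reads with IL-10, against 6 in untreated cells. It drew attention as a signal in junctions that the gene sums leave out. It has the length of Jak1 intron 14, 681 bases, and lies 4 bases from it, and intron 14 itself had 53 reads with IL-10, against 43 in untreated cells. Adding such shifted copies to the genes changed no call, and the source of the junction was not tested.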

How the results depend on the processing

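No paired analysis was possible because each group has 1 library. Jak3, the gene called, kept its direction in each of its 18 alternatives. Over all 391 alternative values, those with no call that changed sides were the ratios of Ptpn6 and Pias3 given here and the median log2 ratios of the STAT factors (-0.02, up to 0.03) and of the gamma chain receptors (0.26, and -0.08 with no read minimum). Jak3 ranged from 2.05 to 3.14 and lost its call only at a 3-fold threshold (ratio 2.17). Taking the intron with the most reads alone gave 1.75 for Jak1, 2.47 for Pias3, which was then called, 1.05 for Ptpn6 and 1.35 for Ptpn11, and 1 pathway gene called lower. Without introns 6 and 7, an alternative added after the data were seen, Pias3 was at 0.925. Pias3 (1.502) was called at 1.5-fold, and Socs3 (3.03-fold against the floor) with no read minimum. Genes called higher and lower numbered 88 and 69 with introns read in both libraries, 221 and 207 with no minimum, 39 and 10 at 100 reads, 368 and 360 at 1.5-fold, 56 and 32 at 3-fold, and 109 and 85 with a 99% interval. Of the pathway genes 5 were higher and 1 lower at 1.5-fold, and 0 were higher at 3-fold. With the median over introns, IL-10 levels were 26.2 (Jak1), 2.67 (Jak2), 2.80 (Jak3), 2.29 (Tyk2), 4.07 (Pias1) and 4.58 (Pias4). Untreated levels were 18.9 (Jak1), 2.14 (Jak2), 2.52 (Tyk2), 4.79 (Pias1), 4.29 (Pias4) and 36.0 (Ptpn6). The Jak1 share became 77.2% (IL-10) and 75.4% (untreated), and the Tyk2 share 6.74% (IL-10) and 10.1% (untreated). Socs3 has no value with introns read in both libraries. Over the scalings the median log2 ratio of all genes lay between -0.016 and 0.003. Depth limits Socs3 and Pias3 most. The cause of these shifts was not tested.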

Other observations

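Within the 10 genes 34 junctions matched no annotated intron, holding 67 reads with IL-10, against 65 in untreated cells. Of these 8 were copies of an annotated intron shifted by a few bases (49 reads with IL-10, 44 untreated). Another 20 shared 1 end with an annotated intron (14 reads with IL-10, 18 untreated), and 7 of those lay in Ptpn6 (7 reads with IL-10, 9 untreated). Of the introns of the chosen transcripts, intron 12 of Jak2, intron 1 of Jak3, intron 1 of Pias1 and intron 5 of Pias3 had no reads in either library.

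Markers of other cells that the adherent population could hold were counted beside the 10 genes, and none was called in either direction. Of 8 B cell markers 2 reached 20 reads, and the list summed to 493 reads with IL-10 and 548 untreated. Of 10 neutrophil markers 3 did (568 with IL-10, 510 untreated), and S100a9, Ly6g, Camp, Ngp, Ltf, Mpo and Elane had no named reads. Of 8 mast cell and eosinophil markers 2 did (103 with IL-10, 69 untreated), with Fcer1a, Epx, Prg2 and Ccr3 at 0. Of 6 dendritic cell markers only Itgax did, with Flt3, Zbtb46, Ccr7, Xcr1 and Siglech at 0, and of 8 fibroblast and mesothelial markers 4 did (748 with IL-10, 740 untreated), with Lum at 0. Their part in the ratios was not tested.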
